A study of Homo sapiens with 9 samples.

Results

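Clone 14B5 is a *DYRK1A* knockout (KO) of SET2, a human megakaryoblastic leukemia cell line that carries mutated *JAK2* and whose cell type the labels give as AML after a myeloproliferative neoplasm (MPN). The comparison covered 6 of the 9 libraries of the series, chosen by their labels: 3 of untreated clone 14B5 (genotype given as a *DYRK1A* KO) and 3 of the untreated WT parent. The other 3 libraries came from a second KO clone, 11H1, and were used only to show where 14B5 differed from it. KO clones were made by nucleofection of Cas9 ribonucleoprotein with a guide RNA and a GFP plasmid, sorting of single GFP-positive cells, and selection of clones whose indels all shifted the reading frame. Each clone therefore descended from 1 cell, while WT was the uncloned line, and no unedited single-cell clone was sequenced. What belongs to the edit and what belongs to the founder cell of 14B5 cannot be told apart here. The 3 libraries of a clone were replicates of that clone only, and nothing in the sources states that they came from separate cultures, so p-values measure the spread between these libraries. Of 60662 genes in the table, 16537 passed the filter on low counts and were tested.

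DYRK1A is a dual-specificity kinase encoded on chromosome 21. It phosphorylates LIN52, a subunit of the MuvB core, which lets the core join the pocket proteins RBL1 and RBL2 and E2F4 in the DREAM complex. DREAM holds cell cycle genes silent in resting cells, while in cycling cells the MuvB core instead binds MYBL2 and FOXM1 and activates mitotic genes. DYRK1A also phosphorylates NFAT and FOXO factors, cyclin D proteins and splicing factors. Megakaryocytes are the platelet-forming cells of bone marrow, and they share a progenitor with red cells. Driver mutations of MPN keep JAK2 and STAT5 active in these cells.

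The libraries of WT and 14B5 held 40995338 to 60272245 expected counts each, so that a count of 0 allowed a level of up to 0.050 to 0.073 CPM in a single library (CPM being the count put on the same total for each library). This limit covers counting error only. All levels below are CPM on library sizes scaled by the trimmed mean of M values (TMM), and they are not divided by gene length. The libraries of each group lay close together, with a biological coefficient of variation of 0.067. Mitochondrial genes took 6.03% of counts in WT library 1, against 3.54% to 3.76% in the other WT libraries and 3.30% to 3.92% in 14B5. All 5 erythroid markers were at 1 CPM or more in every library of both groups. Of 5 megakaryocyte markers, 3 were at that level in every WT library and 2 in every 14B5 library. The erythroid marker *ALAS2*, of heme synthesis, was at 56.6 to 61.2 CPM in WT and 54.4 to 58.8 CPM in 14B5, and *KLF1*, an erythroid factor, at 335 to 389 CPM and 407 to 452 CPM. The summed level of 5 megakaryocyte markers was 995.1 to 999.6 CPM in WT and 601.0 to 626.8 CPM in 14B5. Most of this sum was *ITGA2B* alone, at 911 to 927 CPM in WT and 593 to 621 CPM in 14B5. Markers of T cells (*CD3D*, *CD3E* and *CD3G*) summed to at most 1.08 CPM and those of fibroblasts (*COL1A1*, *COL1A2*, *COL3A1* and *DCN*) to at most 1.02 CPM in any of these libraries. In bulk RNA, fewer cells of a kind and less RNA per cell cannot be told apart.

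A majority of tested genes differed between 14B5 and WT, mostly by little. At an adjusted p under 0.05 in edgeR's quasi-likelihood test, 8853 of 16537 genes (53.5%) were called, 4112 (24.9%) higher and 4741 (28.7%) lower in 14B5. More than this, 60.9% of genes, had groups that did not overlap. The median log2FC was 0.32 among the genes that rose and −0.74 among those that fell, and 4815 of the calls were smaller than 0.5 on the log2 scale. Large changes were mostly losses. A test against a change of 1 on the log2 scale (glmTreat) called 131 genes higher (0.792% of those tested) and 1179 lower (7.13%). Calls below 10 CPM were mostly losses, and those above it mostly gains. Under 1 CPM, 1052 of 3027 genes were lower (34.8%) and 171 higher. From 1 to 10 CPM, 1453 of 3751 were lower (38.7%) and 549 higher. From 10 to 100 CPM, 1762 of 7428 were lower (23.7%) and 2545 higher, and at 100 CPM and over 474 of 2331 were lower (20.3%) and 847 higher. Among long noncoding RNAs, 652 of 1951 were lower and 151 higher.

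**Figure D1:**
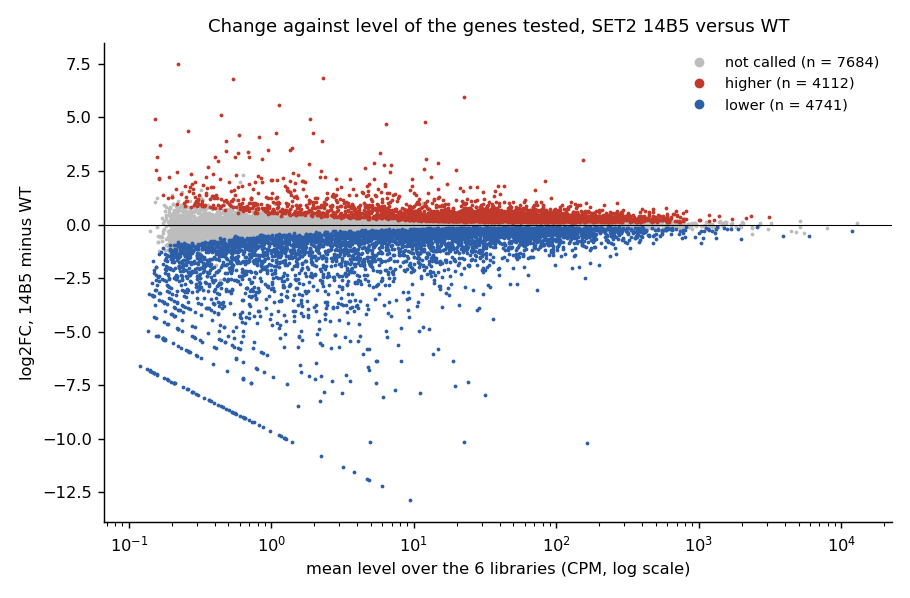
Log2FC of 14B5 minus WT (vertical axis) against mean level over the 6 libraries in CPM (horizontal axis, log scale) for each of the 16537 genes tested. Red points are the 4112 genes called higher, blue points the 4741 called lower and grey points the 7684 not called. The downward tail is longer than the upward one, and its straight lower edge holds genes with a count of 0 in the 3 libraries of 14B5.

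The edited gene kept most of its mRNA. *DYRK1A* (ENSG00000157540.21, chr21:37365573-37526358 in GRCh38) was at 197, 196 and 218 CPM in WT and at 192, 182 and 174 CPM in 14B5. The groups did not overlap, but they lay close, with a log2FC of −0.17 ± 0.06 (SE, n = 3 against 3, adjusted p = 0.028). An exact permutation test of this single gene gave p = 0.10 (two-sided), the smallest it can give with 3 against 3. The call was lost without WT library 3, 14B5 library 2 or 14B5 library 3 (adjusted p up to 0.14). It was also lost with no filter on low counts and with the replicate number as a block (adjusted p = 0.072 and 0.082). A frame-shifting indel leaves a transcript that can still be counted, so this level does not check the edit. Its direct comparison with 11H1 gave a log2FC of −0.07 (adjusted p = 0.22). Of 22 kinases of the DYRK, HIPK and CLK families with SR splicing factors and their kinases, 7 rose and 3 fell, with a median log2FC of 0.11. These shares were 31.8% and 13.6%, against 24.9% and 28.7% over all genes tested. *SRSF10*, a splicing regulator, rose from 208 to 221 CPM in WT to 265 to 291 CPM in 14B5. *HIPK2*, a nuclear kinase related to DYRK1A, fell from 53.3 to 69.1 CPM to 30.3 to 37.8 CPM (log2FC −0.88).

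The largest rises were 5.76- to 62.3-fold. *PLA2G2A*, a secreted phospholipase, was at 0.773, 0.629 and 0.705 CPM in WT and at 44.8, 40.8 and 47.9 CPM in 14B5, which is 62.3-fold higher (log2FC 5.96 ± 0.11, adjusted p = 2.77e-10). *MAL*, a proteolipid of membrane rafts, rose from 0.692 to 0.924 CPM to 22.7 to 24.0 CPM (27.1-fold). *WSCD2* rose 26.1-fold and *HTRA3*, a secreted serine protease, 10.1-fold. Every library of 14B5 lay far above every library of WT for these genes. *AQP1*, the water channel of red cells, was at 32.6, 33.7 and 34.5 CPM in WT and at 257, 282 and 279 CPM in 14B5 (8.02-fold). *PAPPA*, a metalloprotease that cleaves insulin-like growth factor binding proteins, rose 8.21-fold, and *VTN*, the matrix protein vitronectin, 7.34-fold. *MSLN*, *TRIM29* and *CDH1* rose 7.31-, 6.04- and 5.76-fold. *CDH1* encodes E-cadherin, which epithelia and erythroid progenitors both use, and it was at 5.13, 5.72 and 6.56 CPM in WT and at 33.8, 34.6 and 32.9 CPM in 14B5. The other epithelial markers, *EPCAM* and *KRT19*, were under 1 CPM in every library.

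Among nuclear protein-coding genes past the threshold, the 5 that gained most CPM were *TUBA1B*, *HSP90AA1*, *TUBB*, *FTH1* and *HMGB1*, with log2FC from 0.29 to 0.46. The 5 that lost most were *EEF1A1*, *GAPDH*, *ENO1*, *PKM* and *ALDOA*, of which all but the first are glycolytic enzymes.

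Several of the largest falls reached the floor of detection. *DLK1*, an imprinted membrane protein of the Notch ligand family (chr14:100725705-100738224), was at 17.8, 19.5 and 18.8 CPM in WT and had no count in any library of 14B5. Set against 3 counts over the 3 libraries of 14B5, it was at least 1006-fold lower. *EMC10*, a subunit of the endoplasmic reticulum membrane complex, went from 11.0 to 13.2 CPM to a count of 0 (at least 639.6-fold lower). *TMPRSS15*, the protease enteropeptidase, went from 43.0 to 47.8 CPM to a mean of 0.034 CPM, and *KDR*, the VEGF receptor 2, from 11.7 to 13.1 CPM to a mean of 0.039 CPM. *CTSZ*, a lysosomal cathepsin, was at 63.3, 62.0 and 63.7 CPM in WT and at 0.248, 0.284 and 0.226 CPM in 14B5, 248.6-fold lower (log2FC −7.96 ± 0.09, adjusted p = 1.38e-11). *MS4A6A*, the clock repressor *CRY1*, the natriuretic peptide receptor *NPR3*, *TUSC3* and the phosphatase *ACPP* fell 234-, 210-, 183-, 170- and 162-fold.

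**Figure D2:**
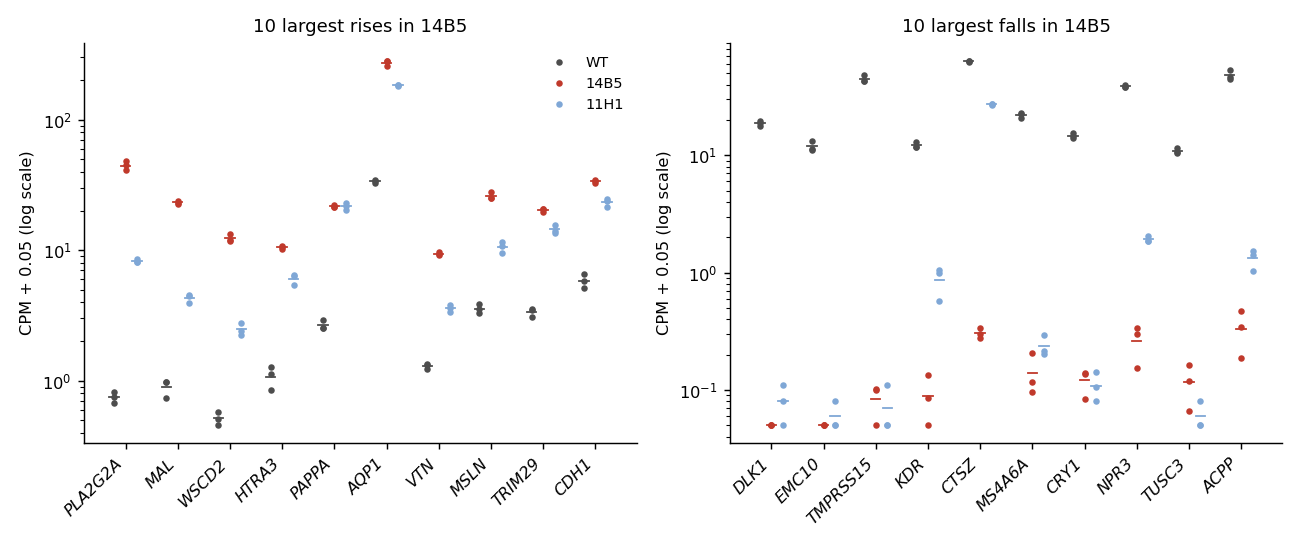
Level in each library, as CPM + 0.05 on a log scale, of the 10 protein-coding genes that rose most (left) and the 10 that fell most (right) in 14B5. Points are libraries (3 in each of WT, 14B5 and 11H1) and bars their means. WT and 14B5 did not overlap for any of the 20, by the rule that chose them. The 11H1 points lay near those of 14B5 for *PAPPA*, and for *CTSZ* at 26.9 to 27.4 CPM lay much nearer to WT.

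Whole loss of a transcript was much more frequent than gain. Of protein-coding genes with at least 1 CPM in every WT library, 55 were at 0.1 CPM or less in every library of 14B5, while *TLX1*, a homeobox gene, was the only one with the reverse pattern. It was at 0.020, 0.021 and 0.073 CPM in WT and at 4.15, 4.73 and 4.75 CPM in 14B5. Of the 55, 36 were also at 0.1 CPM or less in every library of 11H1, and 1 was at 1 CPM or more in each. The latter was *ARAP3*, named here after its values were seen, at a mean of 1.88 CPM in 11H1. The 55 were of mixed kind. They included *DPP10*, *NEFL* and *SLITRK6*, genes of neurons, *EBF3*, *NFIB*, *ID4* and *POU3F4*, transcription regulators, and *SELP* and *MNDA*, genes of platelets and myeloid cells. Among RNA genes, also named after their values were seen, *AP001531.1* fell from 287, 309 and 384 CPM in WT to 0.316, 0.268 and 0.261 CPM in 14B5.

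Megakaryocyte genes fell almost throughout. Of 24 genes of megakaryocytes and platelets, 19 were tested, 17 fell and 2 rose, with a median log2FC of −2.30 against −0.01 over all genes tested. The test beyond 1 on the log2 scale called 13 lower and 1 higher. Lists named here count only members that passed the filter on low counts, and a gene present in only 1 group passes through that group. The filter left 9 of 16 stem and progenitor genes, 11 of 16 of monocytes and granulocytes, 10 of 12 of mast cells, 10 of 15 of lymphocytes and 9 of 13 of fibroblasts and epithelium. *GP9*, a subunit of the von Willebrand factor receptor, was at 20.24, 24.45 and 22.02 CPM in WT and at 0.835, 1.004 and 0.574 CPM in 14B5, 27.9-fold lower (log2FC −4.80 ± 0.15, adjusted p = 7.42e-09). *MMRN1*, the alpha granule protein multimerin, fell from 16.2 to 18.5 CPM to 1.03 to 1.24 CPM (15.7-fold). *ITGB3*, the beta chain of the fibrinogen receptor, fell from 49.8, 53.6 and 61.2 CPM to 5.60, 6.71 and 5.01 CPM (9.58-fold). Its partner *ITGA2B* fell far less, from 911 to 927 CPM to 593 to 621 CPM (1.54-fold). *GP6*, the collagen receptor, *RAB27B*, a regulator of granule release, and *THBS1*, thrombospondin, fell by 3.43, 2.92 and 2.12 on the log2 scale. *PF4*, platelet factor 4, was low in WT at 0.461 to 0.559 CPM and had no count in 14B5 (at least 27.4-fold lower). The 2 that rose were *PLEK*, a protein kinase C substrate of platelets and myeloid cells (188, 183 and 202 CPM in WT and 253, 248 and 242 CPM in 14B5), and *CD9*, a tetraspanin (2.39 to 7.07 CPM, means of 3).

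Progenitor and mast cell genes fell with them. Of 9 tested stem and progenitor genes, 8 fell and none rose (median log2FC −1.53). *CD34* was at 259, 269 and 286 CPM in WT and at 46.30, 50.02 and 48.79 CPM in 14B5, 5.67-fold lower (log2FC −2.50 ± 0.05, adjusted p = 9.88e-10). *ALDH1A1*, a retinaldehyde dehydrogenase, fell from 301 to 318 CPM to 83.8 to 87.4 CPM, and *ANGPT1*, the ligand angiopoietin 1, from 38.1 to 49.1 CPM to 14.6 to 16.0 CPM. *CRHBP* had no count in 14B5. The receptor *KIT* fell by less, from 398 to 481 CPM to 288 to 326 CPM (log2FC −0.48). Of 10 tested genes of mast cells, basophils and eosinophils, 9 fell (median −2.31) and *GATA2* rose by 0.13, a call lost in 4 of the 6 fits that each left out 1 library. *FCER1A*, the IgE receptor alpha chain, was at 133, 131 and 129 CPM in WT and at 16.0, 15.8 and 15.4 CPM in 14B5 (8.42-fold lower). *CPA3*, a mast cell protease, and *PRG2*, an eosinophil granule protein, fell 19.9- and 8.27-fold. *HDC*, histidine decarboxylase, fell least of those named, from a mean of 1399 CPM in WT to 1235 CPM in 14B5.

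**Figure D3:**
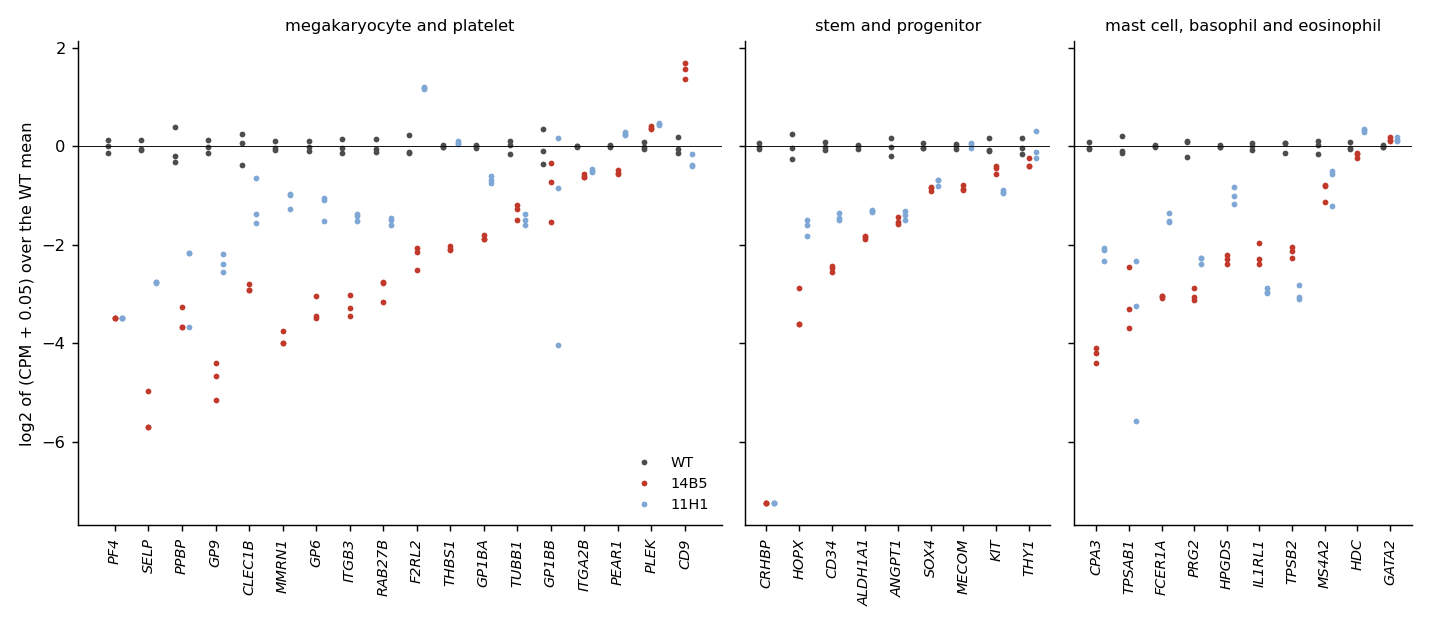
Level of tested members of 3 gene lists (1 megakaryocyte gene is not plotted) in each library, as log2 of (CPM + 0.05) over the WT mean. Points are libraries, 3 in each of WT (grey), 14B5 (red) and 11H1 (blue), and the line at 0 is the WT mean. In 14B5, 17 of 19 megakaryocyte and platelet genes, 8 of 9 stem and progenitor genes and 9 of 10 mast cell, basophil and eosinophil genes were called lower.

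Most tested genes of other blood lineages were lower too. Of 11 tested genes of monocytes and granulocytes, 8 fell and 3 rose (median −1.30). These shares were 72.7% and 27.3%, against 28.7% and 24.9% over all genes tested. *ITGAM*, *CD33* and *TYROBP* fell by 1.67, 1.18 and 1.95 on the log2 scale. The 3 that rose were neutrophil granule genes and stayed under 1 CPM: *ELANE*, for example, was at 0.020, 0 and 0.049 CPM in WT and at 0.993, 0.636 and 0.957 CPM in 14B5. *MPO*, also a neutrophil granule gene, fell from 1.17 to 1.51 CPM to 0.151 to 0.174 CPM (log2FC −3.0). Of 10 lymphocyte genes 6 fell and 1 rose, and *CD79A*, a B cell receptor chain, fell from 20.7 to 23.1 CPM to 11.0 to 13.0 CPM. Of 9 genes of fibroblasts, epithelium and endothelium 7 fell (77.8%) and 1, *CDH1*, rose (11.1%). *PECAM1*, which endothelium and platelets share, fell from 335 to 372 CPM to 161 to 172 CPM, and *CDH5*, endothelial cadherin, from 7.65 to 9.72 CPM to 0.067 to 0.192 CPM. Some members of these lists were under 1 CPM, a level at which losses were the commoner call over all genes (34.8% lower and 5.65% higher). *CSF1R*, at 0.440 to 0.486 CPM in WT and at most 0.017 CPM in 14B5, passed the filter through WT.

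Of 24 tested erythroid genes, 9 rose (37.5% against 24.9% over all genes tested) and 6 fell (25.0% against 28.7%), with a median log2FC of 0.08. The median was 0.040 without 14B5 library 3 and 0.13 without 14B5 library 2. *SLC4A1*, the band 3 anion exchanger of the red cell membrane, was at 10.1, 11.5 and 12.2 CPM in WT and at 37.4, 39.4 and 38.0 CPM in 14B5, 3.36-fold higher (log2FC 1.75 ± 0.07, adjusted p = 2.70e-08). *FECH*, the last enzyme of heme synthesis, rose by 0.67 on the log2 scale. *EPOR*, the erythropoietin receptor, rose from 46.1 to 53.6 CPM to 90.9 to 103 CPM. The membrane skeleton genes *ANK1* and *SPTB* rose by 0.45 and 0.46. Among globins, *HBZ*, the embryonic zeta chain, fell from 53.2, 55.9 and 46.7 CPM to 3.43, 3.05 and 3.48 CPM (15.9-fold), and embryonic *HBE1* fell by 0.47. Fetal *HBG2* was at 11298 to 12989 CPM in WT and 12439 to 14059 CPM in 14B5 and was not called (log2FC 0.07, adjusted p = 0.38). The glycophorin gene *GYPC* fell by 0.27. *HBA1* and *HBA2*, and *HBG1* and *HBG2*, are near-identical copies, between which shared reads are divided by estimate.

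Of 23 blood cell transcription factors, 6 were higher (26.1%, near the 24.9% over all genes tested) and 10 lower (43.5% against 28.7%), with a median of −0.06. The median was −0.028 without WT library 1 and −0.020 without 14B5 library 2. *GATA1*, the factor shared by red cells and megakaryocytes, was at 266 to 279 CPM in WT and 275 to 293 CPM in 14B5 and was not called. *TAL1* and the erythroid factor *KLF1* rose by 0.34 and 0.26. *FLI1*, the ETS factor of megakaryocytes, was at 177, 177 and 198 CPM in WT and at 85.5, 86.7 and 86.7 CPM in 14B5, 2.16-fold lower. *ERG*, a related ETS factor, fell from 137 to 153 CPM to 92.5 to 96.1 CPM. *IKZF2*, *GFI1*, *CEBPA* and *MEIS1* fell by 2.39, 1.99, 1.58 and 1.17 on the log2 scale.

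Most DREAM subunits rose by small amounts. Of 13 tested subunits of DREAM and MuvB with FOXM1, 9 rose, 1 fell and 3 were not called (median 0.31). *LIN54*, the DNA-binding subunit of MuvB, was at 34.2, 35.7 and 40.6 CPM in WT and at 58.5, 62.3 and 52.0 CPM in 14B5 (log2FC 0.63 ± 0.08, adjusted p = 0.000103). *LIN52*, the substrate of DYRK1A, rose from 19.2 to 22.5 CPM to 25.8 to 27.1 CPM (log2FC 0.33). *RBL1*, the pocket protein p107, rose by 0.63, and *RBL2*, p130, was at 71.8 to 83.3 CPM in WT and 74.0 to 79.0 CPM in 14B5 and was not called. *E2F4* rose by 0.31. *MYBL2* was at 192, 196 and 193 CPM in WT and at 286, 287 and 292 CPM in 14B5 (1.47-fold higher), and *FOXM1* rose from 102 to 106 CPM to 154 to 160 CPM (1.503-fold). *TFDP2*, a dimerization partner of E2F, fell by 0.16, a call lost without 14B5 library 1 (adjusted p = 0.066). Of 7 tested activator and atypical E2F genes with *RB1*, 6 rose. *E2F7*, an E2F repressor, rose most, from 3.21, 3.25 and 3.99 CPM to 10.1, 9.80 and 9.75 CPM (2.82-fold), while *E2F1* was at 43.5 to 50.2 CPM in WT and 50.2 to 58.0 CPM in 14B5 and was not called. *RB1* overlapped between groups and lost its call without WT library 2 or 14B5 library 1 (adjusted p = 0.063 and 0.055).

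Most replication and repair genes rose. Of 37 DNA replication genes, 34 rose, 1 fell and 2 were not called (median 0.38). *GINS2*, a subunit of the replicative helicase, was at 28.1, 27.5 and 25.7 CPM in WT and at 43.1, 44.1 and 47.1 CPM in 14B5, 1.63-fold higher (log2FC 0.71 ± 0.06, adjusted p = 3.74e-06). *RFC3* and *RFC2*, subunits of the clamp loader, rose by 0.62 and 0.61. The gene that fell was *MCM6*, another helicase subunit, from 227 to 242 CPM to 190 to 199 CPM. Of 10 genes of deoxynucleotide synthesis, 7 rose, 1 fell and 2 were not called. *TK1*, thymidine kinase, rose from 232, 236 and 207 CPM to 359, 365 and 372 CPM, and *CMPK2*, an interferon-inducible mitochondrial kinase, fell by 0.60. Of 26 genes of homologous recombination and the Fanconi pathway, 22 rose, 4 were not called and none fell (median 0.33). *FANCM*, a DNA translocase, rose most, from 20.99, 20.61 and 24.09 CPM to 45.5, 47.9 and 43.3 CPM (2.06-fold).

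Mitotic genes rose less evenly. Of 31 tested, 21 rose and 3 fell (median 0.27). *UBE2C*, which ubiquitinates mitotic cyclins, was at 81.3, 87.9 and 83.2 CPM in WT and at 148, 141 and 137 CPM in 14B5 (1.67-fold higher). *CCNA2*, cyclin A2, rose from 150 to 167 CPM to 223 to 255 CPM, and *NEK2* rose by 0.63. The 3 that fell were *PTTG1*, securin, *BUB1*, a checkpoint kinase, and *KIF20A*, a kinesin, with log2FC of −0.88, −0.60 and −0.34. *PTTG1* was at 87.8, 82.5 and 82.1 CPM in WT and at 46.2, 46.7 and 46.1 CPM in 14B5.

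Some of these genes carry, near their start, DNA letters through which DREAM and E2F factors are known to bind. The promoters shown are the 100 bases before the start in RefSeq (GRCh38.p14), 5′ to 3′ on the strand of the gene, for 4 replication genes whose stretch held the E2F letters TTTCCCGC on either strand. The letters are in capitals and read GCGGGAAA here. The stretches lie at chr16:88803689-88803788 (plus strand), chr16:85688955-85689054 (minus), chr20:5126623-5126722 (minus) and chr13:33818049-33818148 (plus).
CDT1: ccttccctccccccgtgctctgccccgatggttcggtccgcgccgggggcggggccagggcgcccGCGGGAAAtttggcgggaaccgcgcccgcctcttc
GINS2: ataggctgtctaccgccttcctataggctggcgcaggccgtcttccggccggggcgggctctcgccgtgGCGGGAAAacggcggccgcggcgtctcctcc
PCNA: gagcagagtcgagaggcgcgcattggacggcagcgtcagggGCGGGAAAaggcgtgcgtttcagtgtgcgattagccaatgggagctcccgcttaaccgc
RFC3: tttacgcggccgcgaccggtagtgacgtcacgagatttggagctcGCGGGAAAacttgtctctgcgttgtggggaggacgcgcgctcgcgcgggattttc

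The cell cycle homology region, TTTGAA, which LIN54 binds, stood close to the start of several mitotic genes. It is in capitals, on either strand, in 4 examples at chr15:59105046-59105145, chr16:23678789-23678888, chr15:40160969-40161068 and chr10:92593030-92593129, all on the plus strand.
CCNB2: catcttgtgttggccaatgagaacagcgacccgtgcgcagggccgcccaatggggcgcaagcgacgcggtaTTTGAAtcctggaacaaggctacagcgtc
PLK1: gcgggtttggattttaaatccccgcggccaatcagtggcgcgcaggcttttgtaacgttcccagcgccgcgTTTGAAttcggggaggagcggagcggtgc
BUB1B: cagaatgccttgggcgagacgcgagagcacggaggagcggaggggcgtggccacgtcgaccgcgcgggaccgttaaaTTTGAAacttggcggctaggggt
KIF11: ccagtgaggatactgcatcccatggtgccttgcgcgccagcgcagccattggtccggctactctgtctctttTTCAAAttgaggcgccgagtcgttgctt

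All 8 genes rose, and those not covered by the rule for named genes were chosen here after their values were seen. *PCNA*, the replication clamp, was at 231, 227 and 226 CPM in WT and at 348, 333 and 351 CPM in 14B5. *CDT1* and *PLK1* rose less, by 0.34 and 0.27. Promoters were counted over 250 bases before to 50 after the start, for genes with an annotated position. Mitochondrial genes and those of chromosome 8, whose promoters were not used here, were left out. Of 12845 such tested protein-coding genes, 10668 (83.1%) were matched on the same chromosome, by symbol or else by a synonym of a single gene. The E2F letters stood in 8 of 31 promoters of replication genes (25.8%), against 2.55% of all matched genes and 1.66% of all 27305 promoters in the table. All 8 of those genes rose (median log2FC 0.47), as did 20 of the 23 without the letters (median 0.38). The homology region stood in 17 of 26 mitotic promoters (65.4%), against 9.87% of matched genes and 15.4% of the table. Of those 17 genes 13 rose, 4 were not called and none fell, and of the 9 without it 3 rose and 3 fell. The 3 that fell were *PTTG1*, *BUB1* and *KIF20A*, which lay in stretches of chromosomes 2 and 5 where most genes fell (described below). *HMMR*, which held the region and was not called, also lay in such a stretch of chromosome 5. Motif and position were not separated here. Across all calls, the ETS letters CCGGAAGT stood in 380 of 3174 promoters of genes that rose, 428 of 4449 of those not called (9.62%) and 129 of 3045 of those that fell (4.24%). The GATA letters AGATAA stood in 4.06%, 5.30% and 6.44%. STAT letters (TTCNNNGAA) stood in 6.65% of promoters of genes that rose and 5.68% of those that fell, the homology region in 10.7% and 9.29%, and the interferon response element in 2.21% and 3.28%. Beyond 1 on the log2 scale there were only 78 matched promoters of genes that rose and 745 of genes that fell, and some of these orders turned. There, the ETS letters stood in 2.56% and 1.61%, the GATA letters in 3.85% and 9.80%, the STAT letters in 5.13% and 7.11%, and the homology region in 11.5% and 14.2%. Both of these ETS shares were below the 8.78% of all matched genes. A match of letters is a description and not a binding site.

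**Figure D4:**
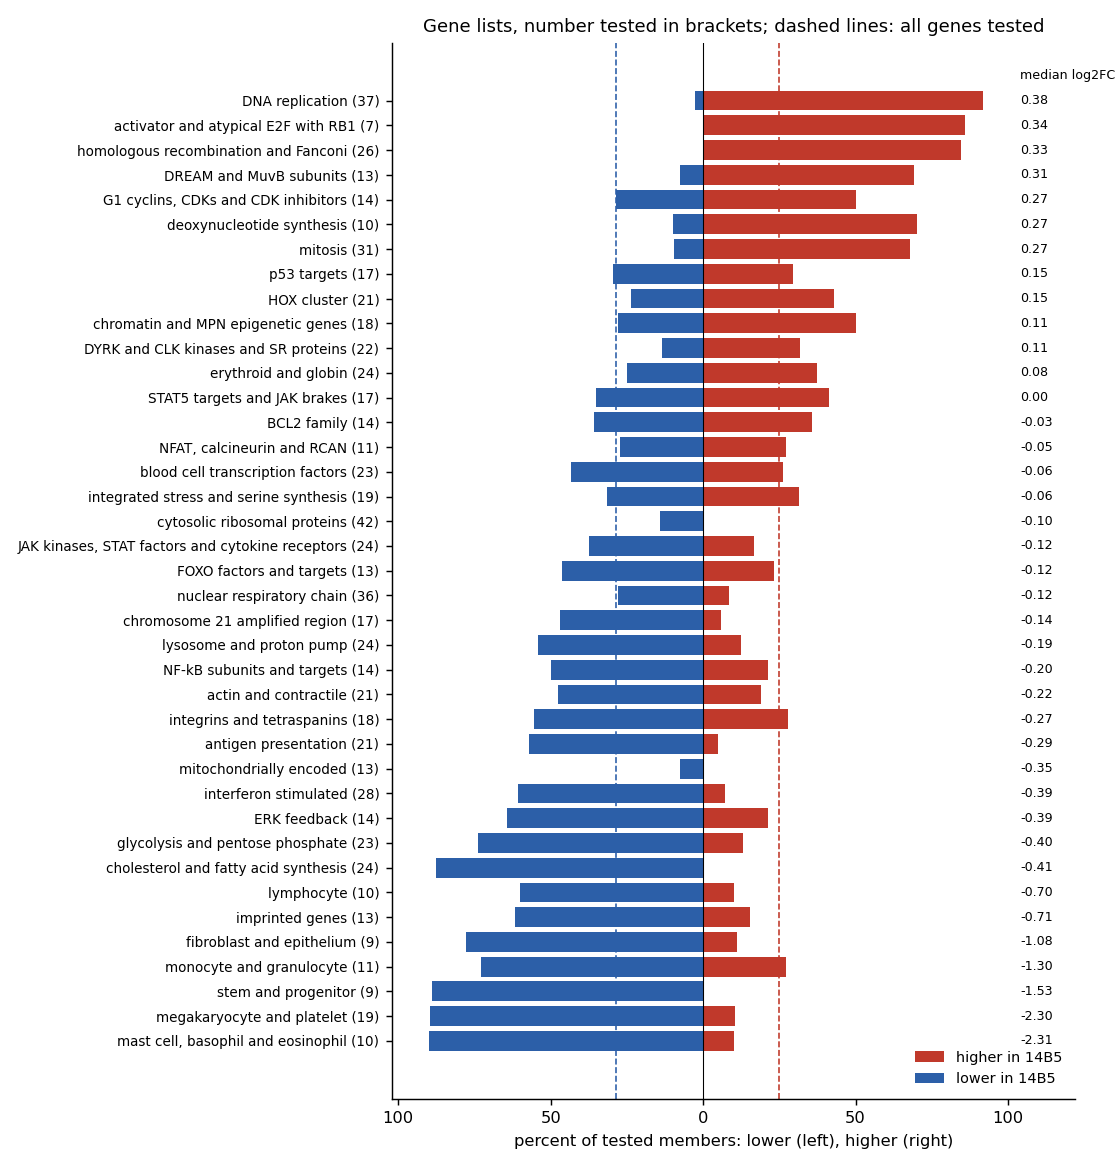
Percent of tested members called higher (red, right) and lower (blue, left) in 14B5 for 39 gene lists, with the number tested in brackets and the median log2FC at the right. Dashed lines mark the shares over all genes tested, 24.9% higher and 28.7% lower. Cell cycle lists stand at the top and lineage lists at the bottom.

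The regulators of G1 moved in both directions, with 7 of 14 higher and 4 lower. *CDKN1A*, the CDK inhibitor p21, was at 6.855, 7.487 and 7.001 CPM in WT and at 21.3, 23.5 and 22.6 CPM in 14B5, 3.12-fold higher (log2FC 1.64 ± 0.07, adjusted p = 4.24e-08). *CDKN1B*, p27, and *CDKN2C*, p18, rose by 0.71 and 0.60, alongside *CDK2* and *CDK4* by 0.47 and 0.42. The cyclins *CCND1*, *CCNE1* and *CCND3* fell by 0.44, 0.40 and 0.33. Of 17 p53 targets, *CDKN1A* included, 5 rose and 5 fell (29.4% each), near the shares over all genes tested (24.9% and 28.7%). The death receptor *TNFRSF10B* fell from 36.7 to 39.5 CPM to 11.1 to 13.4 CPM (3.06-fold), and the ubiquitin ligase *MDM2* rose by 0.34.

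In the BCL2 family 5 of 14 genes rose and 5 fell (35.7% each, against 24.9% and 28.7% over all genes tested). *BCL2*, the antiapoptotic founder of the family, was low, at 6.10, 6.67 and 6.22 CPM in WT and at 3.48, 3.21 and 3.36 CPM in 14B5 (1.91-fold lower, log2FC −0.94 ± 0.10, adjusted p = 2.13e-05). *MCL1*, also antiapoptotic, rose from 199, 197 and 209 CPM to 316, 296 and 279 CPM (1.46-fold). *BCL2L1*, BCL-XL, fell by 0.15, a call lost without WT library 2, 14B5 library 1 or 14B5 library 2 (adjusted p = 0.055 to 0.095). Among the proapoptotic members, *BBC3* and *BCL2L11*, PUMA and BIM, rose by 0.69 and 0.46, while *PMAIP1*, NOXA, and *BID* fell by 0.42 and 0.23.

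Of 24 JAK, STAT and receptor genes 4 rose and 9 fell. *JAK2* was at 142, 144 and 163 CPM in WT and at 127, 125 and 113 CPM in 14B5 (log2FC −0.31 ± 0.07, adjusted p = 0.00288), and *JAK1* fell by 0.46. *STAT5A* was at 323 to 325 CPM in WT and 290 to 313 CPM in 14B5, and *STAT5B* at 163 to 174 CPM and 174 to 191 CPM. Neither was called (adjusted p = 0.066 and 0.089), though *STAT5B* passed the threshold without WT library 3 or without 14B5 library 1 (adjusted p = 0.035 in each). Of 17 STAT5 targets and brakes on JAK, 7 rose (41.2%) and 6 fell (35.3%), against 24.9% and 28.7% over all genes tested. The list had no net direction, with a median log2FC of 0.004 and members from −0.71 to 2.12. *SOCS3*, a feedback inhibitor, was at 97.2, 99.1 and 95.2 CPM in WT and at 177, 177 and 186 CPM in 14B5 (1.83-fold higher). *CISH*, *PIM1* and *PIM2*, targets of STAT5, rose by 0.46, 0.28 and 0.49, and the phosphatase *PTPN6* by 0.62. *CBL*, a ubiquitin ligase for receptors, fell by 0.63.

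Genes that report ERK activity were mostly lower, with 9 of 14 down and 3 up (median −0.39). These shares were 64.3% and 21.4%, against 28.7% and 24.9% over all genes tested. The largest rise among these 14 genes was 1.67 on the log2 scale, and the test beyond 1 called 1 higher and 4 lower. *ETV4*, an ETS factor, was at 22.97, 23.66 and 24.67 CPM in WT and at 3.45, 4.40 and 4.04 CPM in 14B5 (6.02-fold lower). The related *ETV5* fell by 1.43, and *DUSP6*, the ERK phosphatase, from 2.197 to 2.412 CPM to 0.157 to 0.452 CPM. The immediate early gene *EGR1* fell by 0.95. Of 14 NF-kB genes 3 rose and 7 fell, and the cytokine *IL1B* fell from 123 to 131 CPM to 55.3 to 57.5 CPM. Of 11 genes of NFAT and calcineurin 3 rose and 3 fell (27.3% each), near the shares over all genes tested (24.9% and 28.7%). *NFATC1* rose by 0.52, *NFATC4* fell by 0.67, and *RCAN1*, a calcineurin inhibitor and a textbook NFAT target, was not called at 19.2 CPM in WT and 19.3 CPM in 14B5 (means). Of 13 FOXO genes 3 rose (23.1%, near the share over all genes tested) and 6 fell (46.2%). *KLF6* rose from 10.5 to 11.3 CPM to 32.5 to 33.6 CPM (2.99-fold).

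Interferon-stimulated genes fell in part, with 17 of 28 lower and 2 higher (median −0.39). *RSAD2*, viperin, was at 21.60, 22.02 and 22.39 CPM in WT and at 6.34, 6.83 and 6.42 CPM in 14B5 (3.402-fold lower). *BST2*, tetherin, and *USP18*, a brake on interferon signaling, fell by 0.93 and 1.36. *IRF9*, a subunit of the factor that binds the interferon response element, rose by 0.42. Of 21 genes of antigen presentation 12 fell and 1 rose. *HLA-E*, a class I gene, fell by 0.57, while *B2M*, the class I light chain, was at 2546 to 2637 CPM in WT and 2695 to 2776 CPM in 14B5 and was not called. *CIITA*, the activator of class II genes, fell from 5.09 to 6.02 CPM to 2.26 to 2.69 CPM, and class II *HLA-DRA* from 5.11 to 5.59 CPM to 1.71 to 1.84 CPM. HLA genes are polymorphic and alike, so their counts depend on how reads were assigned.

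Most genes of lipid and sugar metabolism fell. Of 24 genes of cholesterol and fatty acid synthesis 21 fell and none rose (median −0.41). *SCD*, the stearoyl-CoA desaturase, was at 1231, 1254 and 1400 CPM in WT and at 847, 871 and 802 CPM in 14B5 (1.56-fold lower). *FASN*, fatty acid synthase, and *DHCR7*, of the last steps to cholesterol, fell by 0.60 and 0.71. *HMGCS1* was at 286 to 305 CPM in WT and 294 to 312 CPM in 14B5 and was not called. Of 23 genes of glycolysis and the pentose phosphate pathway 17 fell and 3 rose (median −0.40). *PKM*, pyruvate kinase, was at 1333, 1342 and 1339 CPM in WT and at 723, 754 and 741 CPM in 14B5 (1.83-fold lower), and *ENO1*, *GAPDH* and *LDHA* fell by 0.66, 0.51 and 0.40. *ALDOC*, an aldolase of brain, fell most, from 63.1 to 73.5 CPM to 2.80 to 3.58 CPM (21.1-fold). *HK2* fell by 0.87 while *HK1* rose by 0.39, and the glucose carrier *SLC2A1* rose by 0.23.

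Of 19 genes of amino acid stress 6 were higher and 6 lower (31.6% each), near the shares over all genes tested (24.9% and 28.7%). *ASNS*, asparagine synthetase, rose from 5.40 to 6.31 CPM to 11.31 to 11.99 CPM, and *PHGDH*, the first enzyme of serine synthesis, fell from 28.5 to 30.2 CPM to 14.2 to 14.6 CPM. Of 36 nuclear genes of the respiratory chain 3 rose (8.33%) and 10 fell (27.8%, near the share over all genes tested), with a median of −0.12. Of 42 cytosolic ribosomal protein genes 6 fell (14.3%) and none rose (median −0.10). These medians were small beside the effect of 1 library: the ribosomal one ran from −0.16 without 14B5 library 3 to −0.037 without 14B5 library 1, and was −0.043 without WT library 1, and the respiratory one was −0.070 without WT library 1. Of 13 mitochondrially encoded genes only *MT-ND3* was called, lower, with overlapping groups. The list's median of −0.35 rested on WT library 1, in which mitochondrial counts were high, and was 0.06 without it.

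Lysosome genes fell more often than they rose, 13 against 3 of 24 (54.2% and 12.5%, against 28.7% and 24.9% over all genes tested). Apart from *CTSZ*, the cathepsins *CTSL* and *CTSS* fell by 0.98 and 0.71. Of 18 integrins and tetraspanins 10 fell (55.6%) and 5 rose (27.8%, near the share over all genes tested). *ITGB5* and *ITGB7* fell by 2.31 and 1.42 and the hyaluronan receptor *CD44* by 0.99, while *ITGB2* and *ITGB1*, the common beta chains of leukocytes and of most cells, rose by 0.39 and 0.30. Of 21 actin and contractile genes 10 fell (47.6%) and 4 rose (19%). *VIM*, the intermediate filament vimentin, was at 186, 198 and 205 CPM in WT and at 83.2, 72.9 and 68.1 CPM in 14B5 (2.66-fold lower), and *MYLK*, myosin light chain kinase, fell from 7.57 to 8.90 CPM to 0.136 to 0.284 CPM.

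Imprinted genes held some of the deepest losses, with 8 of 13 lower and 2 higher (median −0.71). *MEG3*, the noncoding RNA next to *DLK1* (chr14:100779410-100861031), was at 39.8, 38.9 and 32.5 CPM in WT and at 0.316, 0.452 and 0.540 CPM in 14B5 (83.9-fold lower). In 11H1 it was at 50.9, 50.6 and 49.4 CPM, above WT, although *DLK1* itself was near 0 there too, at 0 to 0.061 CPM. The growth factor *IGF2* fell from 7.30 to 7.75 CPM to 0.453 to 0.585 CPM, and *H19*, beside it on chromosome 11, rose by 0.27. Of 21 HOX genes 9 rose (42.9% against 24.9% over all genes tested) and 5 fell (23.8% against 28.7%). Among the risers 7 were in the HOXA cluster and the other 2 in HOXC. *HOXA9* rose from 18.1 to 18.6 CPM to 28.7 to 31.2 CPM. All 5 that fell were in HOXB. Of 18 chromatin and MPN epigenetic genes 9 rose and 5 fell. *EED*, of Polycomb complex PRC2, rose by 0.63, and the DNA methyltransferase *DNMT3A* fell from 69.1 to 70.1 CPM to 45.6 to 51.9 CPM (log2FC −0.50).

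Falls were also counted along chromosomes. Of 265 windows of 10000000 bases with at least 15 tested protein-coding genes, 10 had over 60% of their genes called lower, a limit set after the values were seen. Of the 10, 4 were the adjoining windows chr2:100000001-140000000, 4 were chr5:130000001-170000000, and the others were chr5:1-10000000 and chr7:110000001-120000000. Their medians ran from −0.71 to −0.38 on the log2 scale. The next lowest of the other windows was at −0.33 (on chromosome 15) and the highest of all at 0.26. Of 355 genes inside the 10 windows 270 fell and 12 rose, a share that the choice of windows fixes in part and that supports nothing by itself. In chr2:120000001-130000000, 20 of 21 genes fell, and in chr5:150000001-160000000 36 of 43 fell and none rose. *NDST1*, a heparan sulfate enzyme in the latter, was at 49.1, 48.7 and 51.1 CPM in WT and at 18.3, 21.3 and 18.3 CPM in 14B5. The libraries of 14B5 lay close together there. The median level in chr5:150000001-160000000 relative to the WT mean was −0.62, −0.54 and −0.57 in the 3 libraries. It was −0.51, −0.65 and −0.61 in those of 11H1. In all 10 windows every library of 11H1 also lay below the WT mean, between −0.85 and −0.25.

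The mitotic and replication genes that fell lay in these windows. All 3 mitotic genes that fell lay in them (*BUB1* at chr2:110637698-110678114, *KIF20A* at chr5:138178719-138187715 and *PTTG1* at chr5:160421822-160428744). Only 5 of 31 mitotic genes lay in the windows, and the other two were not called. *MCM6*, the replication gene that fell, lay at chr2:135839626-135876426 and was the only one of 37 in the windows. *RPS14*, a ribosomal protein gene (chr5:150442635-150449756), was at 651, 649 and 550 CPM in WT and at 349, 387 and 426 CPM in 14B5, and it had the largest fall of the 42 ribosomal genes. *SDHA*, a succinate dehydrogenase subunit (chr5:218241-256700), had the largest fall of the 36 respiratory genes, from 301 to 317 CPM to 170 to 174 CPM, and *IL1B* and *EGR1* lay in the windows as well. None of the 17 megakaryocyte genes that fell did. That is near the share of all protein-coding genes called lower that lay in the windows (270 of 3893, 6.94%). The windows were chosen by these same calls, so such counts do not test position. At the other end, chr14:40000001-50000000 had the highest median, with 10 of 17 genes higher and none lower, among them *FANCM* and *FKBP3*, an immunophilin at 87.1 to 96.8 CPM in WT and 148 to 153 CPM in 14B5.

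**Figure D5:**
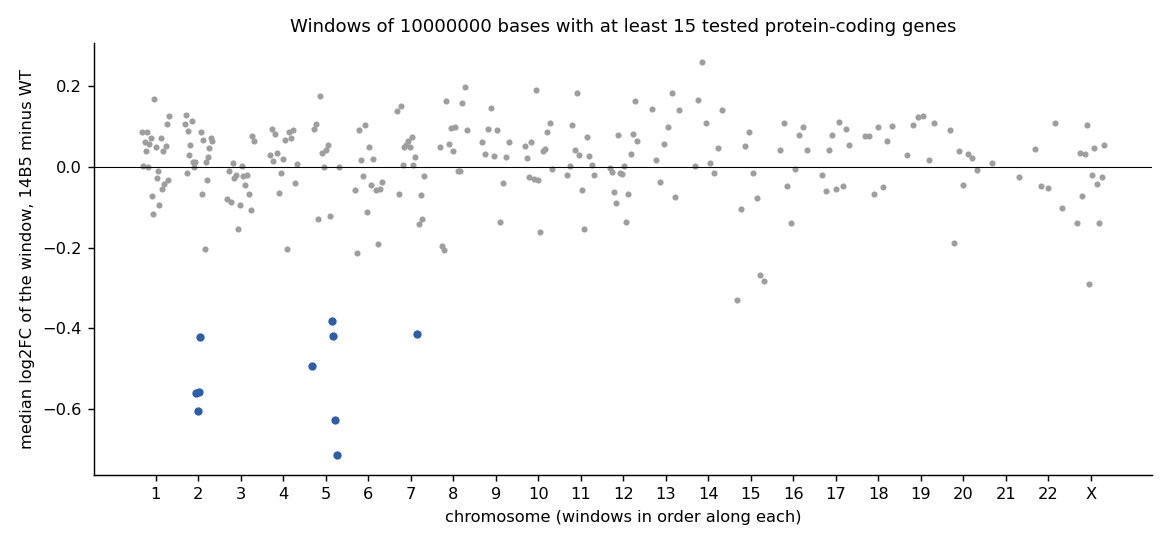
Median log2FC of 14B5 minus WT over the tested protein-coding genes of each of 265 windows, in order along each chromosome. Blue points are the 10 windows with over 60% of genes called lower. They lie on chromosomes 2, 5 and 7, at or below −0.38, and the grey windows lie between −0.33 and 0.26.

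On chromosome 21, of 17 tested genes of a list for the region that holds *DYRK1A*, 8 fell and 1 rose (median −0.14). The window chr21:30000001-40000000, which also holds it, had 50 tested protein-coding genes, of which 12 rose (24.0%) and 14 fell (28.0%), with a median of 0.008. These are near the shares over all genes tested. *HLCS*, *PIGP* and *ERG* fell by 0.60, 0.60 and 0.62, *TTC3* fell by 0.46, and *RUNX1* was at 202 to 221 CPM in WT and 202 to 230 CPM in 14B5 and was not called. Over the whole chromosome 34 of 135 genes rose (25.2%) and 41 fell (30.4%), again near the shares over all genes tested (24.9% and 28.7%).

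Clone 14B5 also differed widely from the second KO clone. A direct test of 14B5 against 11H1 called 10419 of 16352 genes (63.7%), and both clones share the WT libraries in any comparison with WT. It called 5162 genes lower in 14B5 (31.6%) and 5257 higher (32.1%). Of 16 megakaryocyte genes in that test, 12 were lower in 14B5, 1 was higher and 3 were not called. Examples were *GP9* at 3.76 to 4.81 CPM in 11H1 (14B5 minus 11H1 log2FC −2.40 ± 0.20, adjusted p = 9.64e-07), *MMRN1* at 7.07 to 8.76 CPM (−2.89) and *ITGB3* at 19.3 to 21.1 CPM (−1.82). *CD34* was at 96.0 to 107 CPM in 11H1 (−1.06), *FCER1A* at 45.02 to 51.16 CPM (−1.60) and *HBZ* at 16.4 to 19.6 CPM (−2.45). *RSAD2*, at 18.73 to 19.96 CPM in 11H1, was 1.58 lower in 14B5 on the log2 scale. In the other direction, *VIM* was at 31.0 to 32.1 CPM in 11H1 and 1.24 higher in 14B5, and *CCNA2* was at 159 to 166 CPM in 11H1 and 0.58 higher in 14B5. Of 37 DNA replication genes, 25 were higher in 14B5 than in 11H1 and 3 lower (median 0.22). Of 31 mitotic genes 21 were higher and 1 lower (0.23), and of 13 DREAM and MuvB genes 7 and 1 (0.21). Of 26 genes of homologous recombination and the Fanconi pathway 5 were higher and 9 lower (−0.07). Lists outside the cell cycle differed between the clones as much or more. Cytosolic ribosomal protein genes were higher in 40 of 42 cases (0.39) and nuclear respiratory chain genes in 34 of 36 (0.36), with none lower. Glycolysis and pentose phosphate genes were higher in 19 of 23 and lower in 2 (0.22). All 13 mitochondrially encoded genes were lower in 14B5 (−1.02). *RBL1*, *FOXM1* and *E2F4* did not differ past the threshold between the clones (log2FC 0.07, −0.09 and 0.02, adjusted p = 0.30, 0.092 and 0.74), and neither did *EPOR* (−0.10, adjusted p = 0.15) or *TNFRSF10B* (0.03, adjusted p = 0.75).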

How the data were processed

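Poly(A) RNA of untreated SET2 cells was sequenced. The submitters' processing notes name STAR 2.7.9a, Picard, RSEM and GRCh38; the RSEM version and annotation release are not given in the sources used here. The values the authors deposited are RSEM's expected counts, 1 table of genes by 9 libraries; they were rounded to whole numbers here. The table's 92 spike-in rows were all 0. No column of per-sample values was left unused.

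The 14B5 and WT libraries were fitted with edgeR 4.0.16 (R 4.3.3): filterByExpr, TMM scaling and the quasi-likelihood test, with p-values adjusted by Benjamini and Hochberg's method (threshold 0.05), and glmTreat against a log2 change of 1. 14B5 and 11H1 were compared in a fit of their own. Levels are CPM on TMM-scaled sizes over the 9 libraries, and an SE is the size of the log2FC over the square root of F. The fit was tested on simulated data. DESeq2 1.42.0 and limma 3.58.1 (voom) were alternatives, with other scaling, filters, fits and each library left out.

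The genes named were *DYRK1A*, the genes the study is about (*BCL2*, *JAK2*, *STAT5A*, *STAT5B*, *LIN52*, *E2F4*, *RBL1*, *RBL2*, *MYBL2*, *FOXM1*, *MCL1* and *BCL2L1*), the 10 largest rises and falls among protein-coding genes whose groups did not overlap and whose mean was 5 CPM or more, the 5 largest gains and losses in CPM, up to 3 members of each list and direction at that level, up to 5 genes that were on in only 1 group, and up to 3 genes of each of the 2 lowest and 2 highest windows. Other genes named in the text, those of low level and those not called among them, were chosen after their values were seen. The members and lists were chosen with earlier results of these data known. Libraries with the same replicate number did not deviate together, so the numbers were not taken as pairs. Some members of the lists are not reported here by name.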

Additional observations from a re-analysis of the deposited data

Results flagged for a closer look

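Several named genes differed between the clones in the direct test of 14B5 against 11H1 (edgeR's quasi-likelihood test, adjusted p under 0.05), in which 63.7% of all genes passed. Values are log2FC of 14B5 minus 11H1. Among the largest rises over WT, 14B5 was also above 11H1 for *MAL* (2.43), *PLA2G2A* (2.42), *WSCD2* (2.35), *VTN* (1.38), *MSLN* (1.29), *HTRA3* (0.79), *AQP1* (0.57), *CDH1* (0.53) and *TRIM29* (0.48). Among the largest falls, 14B5 was below 11H1 for *CTSZ* (−6.74), *KDR* (−4.19), *NPR3* (−3.15) and *ACPP* (−2.13). Among the genes the study is about, *BCL2* was lower in 14B5 (−0.32), and *JAK2* (0.31), *STAT5B* (0.27), *LIN52* (0.27), *RBL2* (0.24), *MYBL2* (0.23), *BCL2L1* (0.13) and *MCL1* (0.12) were higher. Each clone came from 1 cell, so these differences are between 2 clones carrying edits in the same gene, and their source was not tested.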

How the results depend on the processing

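Counts of calls moved by less than 1.5 times under every alternative run. The 8853 calls ranged from 7529 to 9743, and were 8459 with the DESeq2 Wald test, 8886 with limma-voom and 9743 with no filter on low counts. Replicate numbers did not pair the libraries (correlations of deviations −0.0038, −0.031 and −0.14), and with the replicate number as a block 7529 genes were called, 3314 higher and 4215 lower, with 1221 beyond 1 on the log2 scale and 10099 against 11H1. Leaving out 1 library gave 7597 to 9040 calls. Of 229 named genes, 12 lost their call under the block and 5 to 16 when 1 library was left out.

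Medians of gene lists moved beyond their spread under some settings. With no filter on low counts they were 0.35 for DREAM and MuvB, 0.42 for DNA replication, 0.31 for deoxynucleotide synthesis, 0.37 for homologous recombination, −2.08 for megakaryocyte, −1.67 for progenitor, −1.26 for monocyte and granulocyte, −0.84 for lymphocyte, 0.041 for STAT5 targets, −0.16 for NF-kB, 0.15 for DYRK and CLK kinases, −0.35 for interferon-stimulated, −0.38 for cholesterol, −0.37 for glycolysis, −0.021 for stress, −0.15 for lysosome and −0.89 for imprinted genes, and the BCL2 family turned from −0.03 to 0.0067. The NF-kB median was −0.18 with DESeq2 size factors, −0.18 with the Wald test and −0.18 in a fit of 3 groups, where the BCL2 family was at −0.13.

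Leaving out 1 library gave medians of 0.28 to 0.33 for DREAM and MuvB, 0.37 to 0.42 for DNA replication, 0.28 to 0.30 for deoxynucleotide synthesis, 0.26 to 0.32 for mitosis, 0.32 to 0.38 for homologous recombination, 0.090 to 0.19 for p53 targets, −2.37 to −2.15 for megakaryocyte, −0.085 to −0.020 for transcription factors, −1.62 to −1.43 for progenitor, −1.36 to −1.21 for monocyte and granulocyte, −0.77 to −0.59 for lymphocyte, −0.45 to −0.33 for ERK, −0.21 to −0.17 for NF-kB, −0.15 to −0.012 for BCL2 family, −0.37 to −0.31 for interferon-stimulated, −0.32 to −0.24 for antigen presentation, −0.42 to −0.39 for cholesterol, −0.42 to −0.35 for glycolysis, −0.085 to −0.00075 for stress, −0.19 to −0.15 for lysosome, −0.25 to −0.15 for actin, −0.73 to −0.57 for imprinted, 0.11 to 0.19 for HOX and 0.073 to 0.18 for chromatin genes. STAT5 targets ran from −0.029 (without WT library 2) to 0.12, and mitochondrially encoded genes from −0.50 to 0.061 (without WT library 1). Among single genes near 0, *RBL2* turned to 0.018 with no filter and ran from −0.057 to 0.065 without 1 library. Against 11H1, *PAPPA* turned to 0.016 with no filter and ran from −0.052 to 0.043, and *E2F4* turned to −0.022 among protein-coding genes only and ran from −0.00055 to 0.039. The cause of these moves was not tested. A count of 0 limits levels under about 0.05 CPM in a library, so folds of genes with no count in 14B5 are lower bounds, while those of genes with a few counts there are fitted estimates.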
